A study of Arabidopsis thaliana with 10 samples.

Results

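The genes described here are the 46 core cell cycle genes of *Arabidopsis thaliana*, the cyclins of types A, B and D, the CDKA and CDKB kinases, the retinoblastoma protein RBR1 with its E2F partners, the KRP inhibitors and the kinase WEE1. They were chosen by locus from 27444 protein-coding genes, by a rule that uses no measured value, though with earlier results of these data known. All 46 loci are protein-coding genes of the 5 nuclear chromosomes. H3K27ac, an acetylation of histone H3 that accompanies active transcription, was measured by ChIP-seq in inflorescences at 0, 2, 4 and 8 days after induction of flowering (S0, S2, S4 and S8), with 2 libraries per stage and 2 input libraries as control, whose labels give stages 2 and 4 of flower development. All libraries came from Ler plants that lack functional AP1 and CAL (*ap1-1 cal-1*) and carry pAP1:AP1-GR, a fusion of AP1 to the glucocorticoid receptor driven by the AP1 promoter. Without induction such plants form masses of inflorescence-like meristems, and daily dexamethasone (2 μM) starts synchronous flower formation, so S0 is the tissue before induction and every stage shares the mutations and the transgene. Each stage is represented by 1 list of peaks that the authors called on its pooled libraries, so no value exists for a single library, no test between stages could be made, and the counts and ranks below describe 4 lists.

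Progress through the plant cell cycle depends on cyclin-dependent kinases (CDKs), which act only when bound to a cyclin. D-type cyclins with CDKA are known to phosphorylate RBR1 and so release E2F factors, which activate genes of DNA synthesis, whereas A-type cyclins act mainly during DNA synthesis and B-type cyclins with CDKB kinases drive mitosis. KRP proteins bind and inhibit CDK complexes, and WEE1 phosphorylates CDKs when DNA replication is disturbed. Many mitotic genes are controlled through the mitosis-specific activator (MSA) element, which MYB3R factors recognise, and many genes of DNA synthesis through E2F sites.

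Promoters of 5 B-type cyclins are shown first because the MSA element recurs in them. The bases before the annotated start are given 5′ to 3′ on the strand of the gene, from the RefSeq sequence of TAIR10.1, with the MSA core AACGG, or its reverse complement CCGTT, in capitals. The stretch of CYCB1;1 (AT4G37490) is chr4:17624309-17624558 on the minus strand, that of CYCB1;2 (AT5G06150) chr5:1861704-1861953 (minus), that of CYCB2;1 (AT2G17620) chr2:7663805-7664054 (plus), that of CYCB2;2 (AT4G35620) chr4:16901346-16901595 (plus) and that of CYCB2;3 (AT1G20610) chr1:7137829-7138078 (minus).
CYCB1;1: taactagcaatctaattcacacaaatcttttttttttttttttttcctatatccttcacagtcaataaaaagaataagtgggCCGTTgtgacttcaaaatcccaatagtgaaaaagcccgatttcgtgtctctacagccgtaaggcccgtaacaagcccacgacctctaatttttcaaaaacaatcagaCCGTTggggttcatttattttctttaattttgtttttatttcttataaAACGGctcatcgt
CYCB1;2: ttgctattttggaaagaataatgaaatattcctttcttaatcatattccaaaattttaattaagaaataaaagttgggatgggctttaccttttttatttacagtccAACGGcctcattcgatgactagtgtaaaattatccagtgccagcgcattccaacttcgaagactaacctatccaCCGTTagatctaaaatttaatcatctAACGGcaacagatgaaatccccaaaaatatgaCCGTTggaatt
CYCB2;1: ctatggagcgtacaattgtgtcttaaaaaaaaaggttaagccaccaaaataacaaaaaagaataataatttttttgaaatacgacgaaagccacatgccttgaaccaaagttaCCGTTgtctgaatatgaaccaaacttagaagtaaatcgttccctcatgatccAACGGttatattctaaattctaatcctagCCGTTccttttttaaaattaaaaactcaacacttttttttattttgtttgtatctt
CYCB2;2: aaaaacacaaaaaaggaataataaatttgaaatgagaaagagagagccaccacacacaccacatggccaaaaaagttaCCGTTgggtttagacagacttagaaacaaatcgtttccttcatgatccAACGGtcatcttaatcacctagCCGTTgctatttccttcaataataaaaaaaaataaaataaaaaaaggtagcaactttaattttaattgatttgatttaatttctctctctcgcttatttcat
CYCB2;3: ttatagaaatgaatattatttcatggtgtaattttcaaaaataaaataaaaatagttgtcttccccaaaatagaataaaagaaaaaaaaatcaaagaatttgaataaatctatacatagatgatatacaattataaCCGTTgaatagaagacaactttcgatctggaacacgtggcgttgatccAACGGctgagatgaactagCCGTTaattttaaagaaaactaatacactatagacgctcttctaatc
The first 4 of these genes had no H3K27ac peak at any stage, and AT1G20610 had one at S0 and at S8. Of the 9 B-type cyclins 6 had no peak at any stage, against 51.6% of all genes. CYCB1;3, which is not printed, also holds 3 copies of the core. It had a peak at all 4 stages, with the summit upstream of the gene. Each of the 5 stretches holds 3 or 4 copies of the core. Over the promoter from 250 bases before the start to 50 bases after it, on both strands, the core was found in 8 of 9 B-type cyclins, in 22 of all 46 cell cycle genes (47.8%) and in 24.7% of 27443 promoters of that length. It recurs outside the B-type cyclins too. It was found in 5 of 7 KRP and 4 of 10 A-type promoters, with 7 copies in KRP1 and 5 in KRP7. The longer forms CTAACGG and CCAACGG, which contain the core, were found in 7 of the 46 genes and in 3.11% of all promoters, and all 7 were B-type cyclins.

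E2F sites were searched as TTT, then 2 bases that are C or G, then CG and a last base that is C or G, on both strands, and were found in 6 of the 46 promoters (13%) and in 3.59% of all promoters. Of those 6 genes, 4 had a peak at all 4 stages. Shown with the site in capitals are RBR1 (chr3:3919360-3919462, minus strand, all 103 bases between it and the next gene) and CYCA3;4 (AT1G47230, chr1:17306324-17306573, plus).
RBR1: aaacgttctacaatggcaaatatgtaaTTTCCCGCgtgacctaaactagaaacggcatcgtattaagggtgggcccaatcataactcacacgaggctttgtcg
CYCA3;4: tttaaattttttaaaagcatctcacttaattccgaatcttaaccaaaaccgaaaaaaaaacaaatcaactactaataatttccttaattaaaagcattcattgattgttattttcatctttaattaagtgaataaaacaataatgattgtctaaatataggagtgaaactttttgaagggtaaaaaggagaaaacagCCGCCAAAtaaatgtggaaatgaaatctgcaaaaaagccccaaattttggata
A match of these letters is a description of the sequence, and no binding was measured here. Site II (TGGGCC or TGGGCT) was present in 11 of the 46 promoters (23.9%), near its share of 21.7% over all promoters.

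A peak was given to a gene when its summit lay in the gene or within 1 kb upstream of its annotated start (TSS). By this rule 25 of the 46 cell cycle genes had a peak at S0 (54.3%), against 43.8% of all protein-coding genes. At S2 it was 20 of 46 (43.5%, against 34.5% of all genes), at S4 19 (41.3%, against 36.4%) and at S8 17 (37%, against 36.6%). At all 4 stages 16 genes had a peak (34.8%, against 26.7% of all genes), and 20 had none at any stage (43.5%, against 51.6%). A peak at S0 and none at S8 was found for 8 genes (17.4%, against 9.93% of all genes), and the opposite for 0 genes (against 2.71%). The S0 list is the longest of the 4, with 11583 peaks, and the lists of S2, S4 and S8 hold 8608, 9114 and 9235. Each list was also cut to its 8608 peaks with the highest −log10 p. The counts in order of stage were then 18, 20, 14 and 16, against 34.4 to 34.6% of all genes at each stage. At all 4 stages 12 of the 46 genes then had a peak, against 23.6% of all genes. In these cut lists 3 genes had a peak at S0 and none at S8, against 6.31% of all genes, and 1 the opposite, against 6.24%. With the 5000 highest peaks of each list the counts were 15, 10, 11 and 8, against 20.6 to 20.7% of all genes. A peak at all 4 stages was then found for 5 of 46, against 11.3% of all genes, so that excess rested on weaker peaks. The order of the stages thus depended on how many peaks were taken, and S8 was below S0 in all 3 settings, by 8, 2 and 7 genes.

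**Figure D1:**
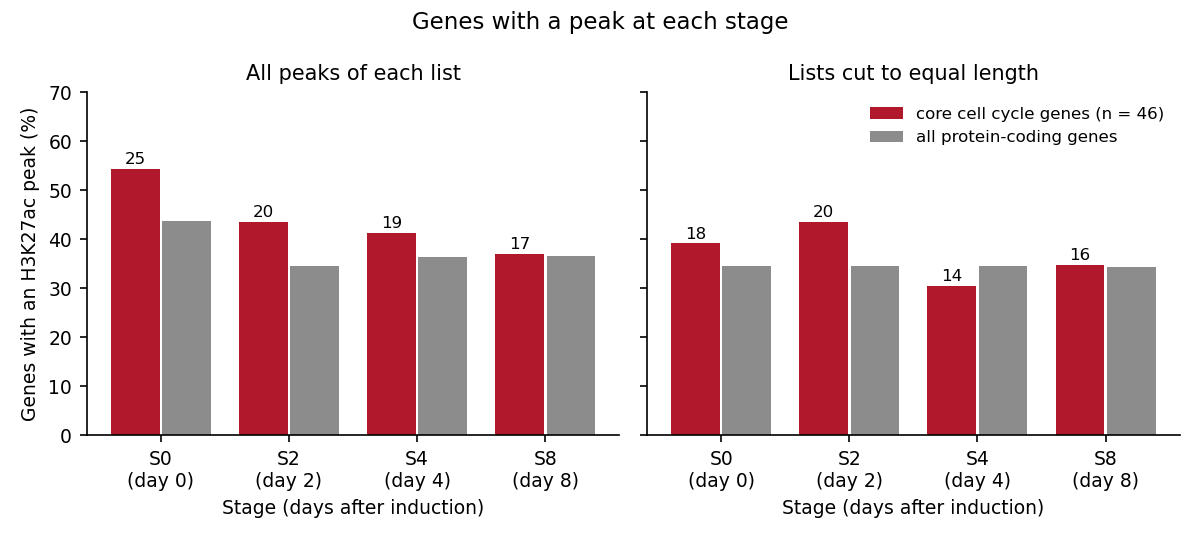
Share of the 46 core cell cycle genes (red, with the number of genes above each bar) and of all protein-coding genes (grey) that had an H3K27ac peak at S0, S2, S4 and S8, in percent. With all peaks the cell cycle genes number 25, 20, 19 and 17, and with lists of equal length 18, 20, 14 and 16.

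Genes outside the cell cycle were counted in the same lists. They include genes that the study describes in these data, so they are no independent check of the stages. Of 5 genes of the inflorescence meristem and flowering time (SOC1, AGL24, SVP, FUL and TFL1), the numbers with a peak from S0 to S8 were 4, 2, 1 and 0, while for 6 floral organ identity genes (AP3, PI, AG and SEP1 to SEP3) they were 0, 0, 1 and 4. TFL1, PI and AG had no peak at any stage. None of 3 root hair genes had a peak. The tissue is a mixture of cells whose makeup changes over these days, and fewer cells with a mark and less mark per cell cannot be told apart in it. The part of this change in the results on cell cycle genes was not tested.

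Strength is given as the fold enrichment at the summit, the authors' ratio of ChIP over control, and as its percentile among all peaks of the same list (0 lowest, 100 highest). Only the percentile is compared between stages, since each list was called separately. A percentile depends on the other peaks of its list, and the S0 list holds the most peaks. Of all genes with a peak at S0 and S8, 59.4% ranked lower at S8 in the full lists. With lists of equal length it was 49.6%. Where 4 values are given for a gene, they follow the order S0, S2, S4, S8. Where a gene had several peaks, the one with the highest fold enrichment is meant. Among the 16 genes with a peak at all 4 stages the median of these percentiles by stage, from S0 to S8, was 79.9, 57, 57.7 and 53.8. The 10 genes with a peak at some stages only ranked lower, with medians of 12.9 (S0), 25.3 (S2) and 6.27 (S4), and with a single gene, at the 28.9 percentile, at S8. All lists end near a −log10 q of 10, and the median −log10 q of these 10 genes was 14.4 (S0), 13.2 (S2) and 10.03 (S4), so most of their peaks lay close to the limit of the lists. A gene without a peak may carry signal below that limit.

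**Figure D2:**
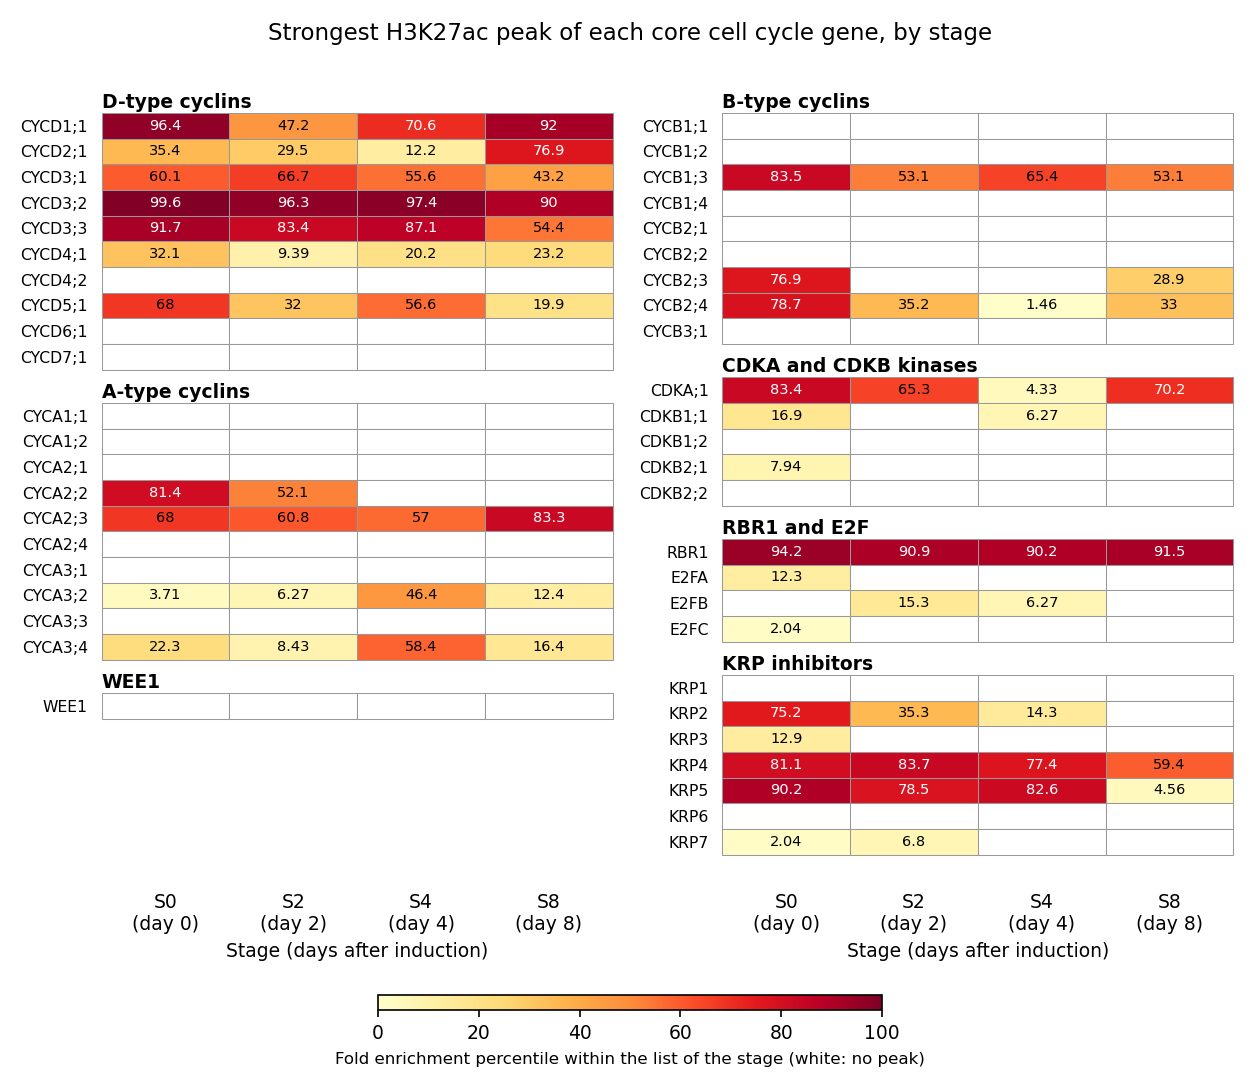
Fold enrichment percentile of the strongest H3K27ac peak of each of the 46 genes (rows, by class) at S0, S2, S4 and S8 (columns), within the list of the stage, with white for no peak. The same 7 D-type cyclins are filled at all 4 stages, while most A- and B-type cyclins are white throughout.

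D-type cyclins, which link growth signals to entry into DNA synthesis, had a peak at every stage or at none. Of 10 genes, the same 7 had a peak at S0, S2, S4 and S8 (70%, against 34.5 to 43.8% of all genes), all with the summit inside the gene. This count was also 7 at every stage with lists of equal length. It was 5, 3, 5 and 4 in order of stage with the 5000 highest peaks of each list, and 7, 3, 5 and 4 with peaks of a −log10 q of at least 20, so constant presence held only while weaker peaks were kept. The remaining 3 had none at any stage. They are CYCD4;2 (AT5G10440), CYCD6;1 (AT4G03270), which is known for formative divisions in the root, and CYCD7;1 (AT5G02110), known from the stomatal lineage.

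CYCD3;2 (AT5G67260, chromosome 5, 26836139 to 26839597, plus strand) had the highest mean rank of the 46 genes and the highest rank at S0, S2 and S4. At S8 CYCD1;1 ranked above CYCD3;2, as did RBR1 through a peak on its neighbour. The D3 cyclins are known to prolong cell division in lateral organs. The fold enrichment of CYCD3;2 was 9.33, 5.06, 5.25 and 4.22 from S0 to S8, at the 99.6, 96.3, 97.4 and 90 percentiles. The peak covered 1606 to 1742 bp, starting 82 bp upstream of the TSS at S0, 33 bp downstream at S2, 24 bp upstream at S4 and 19 bp downstream at S8, with the summit in coding exon 1 at S0, S4 and S8 and in coding exon 2 at S2. Its paralog CYCD3;3 (AT3G50070) had a peak of 1531 to 1693 bp at the 91.7, 83.4, 87.1 and 54.4 percentiles, and the cytokinin-responsive CYCD3;1 (AT4G34160) one of 1630 to 1708 bp at the 60.1, 66.7, 55.6 and 43.2 percentiles. These 3 paralogs carried peaks wider than the 90th percentile of strongest in-gene peaks over all genes, which was 1208 to 1291 bp by stage. The peak of CYCD5;1, at 1316 to 1582 bp, was also wider than this at every stage.

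The other D-type cyclins differed in their course. CYCD1;1 (AT1G70210) was at the 96.4, 47.2, 70.6 and 92 percentiles, with summits 711 to 840 bp downstream of its TSS. Its signal was held as 2 peaks at S0 and S2 and as 1 peak of 2181 bp at S8. The nearest TSS to these summits belongs to AT1G70209, a short gene that lies within CYCD1;1 on the other strand, so the peak goes to that gene when only the nearest TSS counts. CYCD2;1 (AT2G22490) was at the 35.4, 29.5, 12.2 and 76.9 percentiles and CYCD5;1 (AT4G37630) at the 68, 32, 56.6 and 19.9 percentiles, so that of these 2 genes the first ranked higher at S8 than at S0 and the second lower. CYCD4;1 (AT5G65420) stayed between the 9.39 and the 32.1 percentile.

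Of the 10 A-type cyclins, 4 had a peak at S0 and S2 (40%, against 43.8 and 34.5% of all genes). At S4 and S8 it was 3 (30%, against 36.4 and 36.6%). CYCA2;3 (AT1G15570, chromosome 1, 5361865 to 5365559, plus strand), known to restrain endoreduplication together with CDKB1, had the highest mean rank. Its fold enrichment was 3.74, 3.26, 3.01 and 3.80 from S0 to S8, at the 68, 60.8, 57 and 83.3 percentiles. The summit lay in intron 1 at every stage, and the peak was 1226, 790, 1548 and 2022 bp wide. Its rank was higher at S8 than at S0, also with lists of equal length (82.1 against 57).

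CYCA2;2 (AT5G11300, chromosome 5, 3601513 to 3605350, minus strand) had a peak at S0 and S2 only. The S0 peak covered 3604661 to 3605370, with a fold enrichment of 4.30 (81.4 percentile), and the S2 peak 3604973 to 3605296, with 3.10 (52.1 percentile), both with the summit in intron 1, 237 and 257 bp downstream of the TSS. This was the highest rank of any cell cycle gene with no peak at S8, and the same pattern held with lists of equal length and with the 5000 strongest peaks of each list. With an upstream window of 2 kb in place of 1 kb it had a peak at all 4 stages.

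CYCA3;2 (AT1G47210), AT1G47220 (CYCA3;3) and AT1G47230 (CYCA3;4) follow each other on chromosome 1 on the plus strand. The outer 2 had a peak at all 4 stages and AT1G47220 between them had none. AT1G47210 was at the 3.71, 6.27, 46.4 and 12.4 percentiles and AT1G47230 at the 22.3, 8.43, 58.4 and 16.4 percentiles, so both ranked highest at S4, as did no other of the 16 genes with a peak at all 4 stages. The E2F site of AT1G47230 printed above, which starts 53 bases before its TSS, lay inside the peak at S0 and S4 and outside it at S2 and S8. The other 5 A-type cyclins with no peak were AT1G44110 and AT1G77390 of the A1 group, the second known for its role in meiosis, AT5G25380 and AT1G80370 of the A2 group, and AT5G43080 of the A3 group.

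The B-type cyclins, which act in mitosis, had few summits inside the gene. Of 9 genes, 3 had a peak at S0 and S8 (33.3%, against 43.8 and 36.6% of all genes). At S2 and S4 it was 2 (22.2%, against 34.5 and 36.4%). A summit in the gene itself was found only for 1 gene at S0 and S8 and for 0 at S2 and S4. Of all 27444 genes 10730, 8376, 8791 and 8896 had a summit in the gene from S0 to S8, with shares of 39.1% at S0, 32% at S4 and 32.4% at S8. The 6 genes with no peak at any stage were AT4G37490, AT5G06150, AT2G26760 (CYCB1;4), AT2G17620, AT4G35620 and AT1G16330 (CYCB3;1). The first of them is widely used as a reporter of cells in mitosis.

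The gene with a peak inside it was AT1G20610 (chromosome 1, 7134659 to 7137828, minus strand), the last of the 5 promoters printed above. Its peak ran from 7136922 to 7137740 at S0, with a fold enrichment of 4.08 (76.9 percentile), and from 7136911 to 7137651 at S8, with 2.603 (28.9 percentile). Both summits lay in intron 1, 298 and 341 bp downstream of the TSS, and no peak was called at S2 or S4.

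For the other 2 B-type cyclins the summit lay upstream and on another gene or between genes. CYCB1;3 (AT3G11520, chromosome 3, 3625286 to 3627273, minus strand) had the highest mean rank of the class, with a fold enrichment of 4.44, 3.12, 3.19 and 2.97 from S0 to S8 (83.5, 53.1, 65.4 and 53.1 percentiles). Its summits lay 748 to 873 bp upstream of the TSS, on the snoRNA gene AT3G02445 at S0, on the snoRNA gene AT3G02435 at S2 and on no annotated gene at S4 and S8. Of the 32-base words around these summits, 5.88 to 11.8% occur more than once in the genome, the highest share at any summit of the 46 genes. CYCB2;4 (AT1G76310) was at the 78.7, 35.2, 1.46 and 33 percentiles through a peak on AT1G76320 (FRS4), which starts 434 bp away and runs in the opposite direction. All 4 summits lay inside that neighbour, 265 to 508 bp downstream of its TSS. A peak so placed cannot be told apart from the mark of the neighbour.

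**Figure D3:**
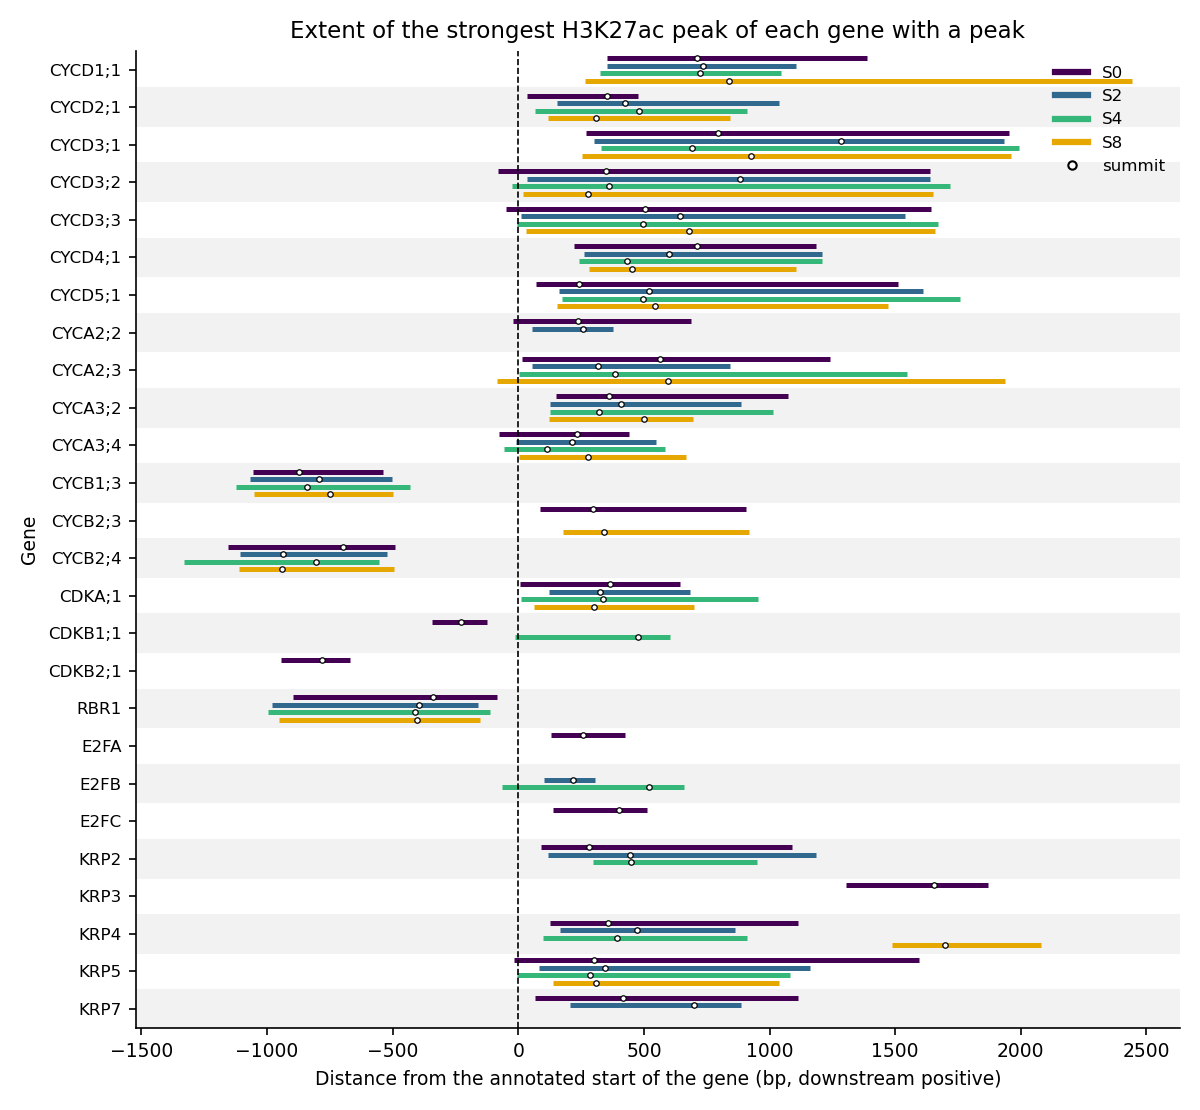
Extent of the strongest H3K27ac peak of the 26 genes that had one (bars, with the summit as a circle) relative to the annotated start of the gene in bp, at S0, S2, S4 and S8. In most genes the peak lies over the first kb of the gene, while those of RBR1, CYCB1;3, CYCB2;4 and CDKB2;1 lie upstream at each stage with a peak.

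Of the 5 CDKA and CDKB kinases, 3, 1, 2 and 1 had a peak in order of stage. These are 60, 20, 40 and 20%, against 43.8, 34.5, 36.4 and 36.6% of all genes. Among the kinases, CDKA;1 (AT3G48750, chromosome 3, 18071454 to 18074641, plus strand), the CDK that acts throughout the cycle, had a peak at all 4 stages. Its fold enrichment was 4.43, 3.35, 2.27 and 3.35 from S0 to S8, at the 83.4, 65.3, 4.33 and 70.2 percentiles. The summit lay in intron 1, 300 to 365 bp downstream of the TSS, at every stage, and S4 stood apart as the stage with the lowest rank. With lists of equal length this gene had no peak at S4.

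The mitotic CDKB kinases, a class particular to plants, had only peaks of low rank. CDKB1;1 (AT3G54180, chromosome 3, 20059671 to 20061488, plus strand) had 2 peaks at S0. The stronger one, from 20059329 to 20059548, had a fold enrichment of 2.54 (16.9 percentile) and its summit in the upstream neighbour AT3G54170 (FIP37), near the 3′ end of that gene. The other, from 20059960 to 20060235 with 2.33, peaked in coding exon 1 at 398 bp past the TSS. At S4 a peak from 20059658 to 20060273 had its summit in coding exon 1, with 2.32 (6.27 percentile), and there was none at S2 or S8. AT1G76540 (CDKB2;1, chromosome 1, 28720328 to 28722550, minus strand) had a peak at S0 only, from 28723219 to 28723493 with a fold enrichment of 2.38 (7.94 percentile), whose summit lay in the neighbour AT1G76550. Neither gene had a peak at any stage with lists of equal length. AT2G38620 (CDKB1;2) and AT1G20930 (CDKB2;2) had none in the full lists.

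RBR1 (AT3G12280, chromosome 3, 3913349 to 3919359, minus strand), the retinoblastoma protein that holds E2F factors inactive, ranked high at every stage through a peak on a neighbouring gene. The fold enrichment of its strongest peak was 5.62, 4.36, 4.13 and 4.36 from S0 to S8, at the 94.2, 90.9, 90.2 and 91.5 percentiles. This peak lay upstream, with its summit 339 to 411 bp before the TSS of RBR1 and 235 to 307 bp inside AT3G12290, a gene that starts 104 bp away and runs in the opposite direction. The rank of this peak cannot be told apart from the mark of that neighbour. A second, weaker peak lay in RBR1 itself at S0, S2 and S4, with summits 391 to 800 bp downstream of the TSS. Its fold enrichments were 2.77, 3.22 and 2.61, at the 28.1, 58.5 and 30.2 percentiles. At S8 the peak on the neighbour was still listed and the one in RBR1 was not. The E2F site in the bases between the 2 genes lay outside every peak.

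Of the 4 genes RBR1 and E2F, 3, 2, 2 and 1 had a peak in order of stage. These are 75, 50, 50 and 25%, against 43.8, 34.5, 36.4 and 36.6% of all genes. The 3 E2F genes were each called at 1 or 2 stages only, at a low rank. Over all genes, 5940 of 27444 had a peak at some stages only. With an upstream window of 2 kb E2FA had a peak at S0, S2 and S4. AT2G36010 (E2FA, chromosome 2, 15119516 to 15123184, plus strand), an activator of genes of DNA synthesis, had a peak at S0 from 15119648 to 15119942 with a fold enrichment of 2.48 (12.3 percentile). AT1G47870 (E2FC, chromosome 1, 17634697 to 17637809, plus strand), a repressor, had one at S0 from 17634834 to 17635208 with 2.23 (2.04 percentile). AT5G22220 (E2FB, chromosome 5, 7360535 to 7364505, plus strand), an activator, had one at S2 from 7360638 to 7360842 with 2.61 (15.3 percentile) and at S4 from 7360472 to 7361195 with 2.32 (6.27 percentile). E2FB was the one gene of the 46 with peaks at later stages and none at S0. With lists of equal length only its S2 peak remained of these 4 peaks.

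The number of the 7 KRP inhibitors with a peak was 5, 4, 3 and 2 in order of stage. These are 71.4, 57.1, 42.9 and 28.6%, against 43.8, 34.5, 36.4 and 36.6% of all genes. Each later set was part of the earlier one. KRP4 (AT2G32710, chromosome 2, 13873362 to 13876737, plus strand) had the highest mean rank, with a fold enrichment of 4.28, 3.90, 3.50 and 3.09 from S0 to S8 (81.1, 83.7, 77.4 and 59.4 percentiles). Its strongest summit lay 356 to 473 bp downstream of the TSS at S0, S2 and S4, and 1699 bp downstream, in coding exon 2, at S8. Its S8 peak nearer to the TSS, at 524 bp, was at the 40 percentile, and with that peak the difference between S8 and S0 was -41.1 percentile points in place of -21.8. KRP5 (AT3G24810, chromosome 3, 9060836 to 9062003, plus strand), known from control of cell size and endoreduplication, had fold enrichments of 4.99, 3.71, 3.68 and 2.27, at the 90.2, 78.5, 82.6 and 4.56 percentiles. Of the 17 genes with a peak at both S8 and S0 it had the largest difference in rank, -85.7 percentile points, and with lists of equal length it had no peak at S8. Its summit stayed within 285 to 345 bp of the TSS, in coding exon 1, at every stage.

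KRP2 (AT3G50630, chromosome 3, 18800306 to 18801595, plus strand), known as an inhibitor of lateral root initiation, had a peak at S0, S2 and S4. It ran from 18800395 to 18801396 at S0 with a fold enrichment of 4.02 (75.2 percentile), from 18800424 to 18801493 at S2 with 2.86 (35.3 percentile) and from 18800602 to 18801255 at S4 with 2.41 (14.3 percentile), and none was called at S8. All 3 summits were in coding exon 1. KRP7 (AT1G49620, chromosome 1, 18365336 to 18366744, minus strand) had a peak at S0 from 18365630 to 18366676 with 2.23 (2.04 percentile) and at S2 from 18365859 to 18366539 with 2.49 (6.8 percentile). KRP3 (AT5G48820, chromosome 5, 19792270 to 19794480, minus strand) had one at S0 from 19792612 to 19793177 with 2.48 (12.9 percentile), its summit in coding exon 3 and 1656 bp downstream of the TSS. KRP1 (AT2G23430) and KRP6 (AT3G19150) had none. With lists of equal length the class numbered 3, 4, 2 and 1 at S0, S2, S4 and S8, against 34.4 to 34.6% of all genes. WEE1 (AT1G02970), a single gene, had no peak at any stage.

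Rank within the list was lower at S8 than at S0 in 14 of the 17 cell cycle genes with a peak at both, with a median difference of -13.1 percentile points. The 14 include RBR1 and CYCB2;4, ranked by a peak that cannot be told apart from the mark of a neighbour. They also include CYCB1;3, whose summits lay upstream on snoRNA genes or between genes. Over all 9308 genes with a peak at both stages, 59.4% were lower and the median difference was -4.09. These ranks come from lists of 9235 peaks at S8 and 11583 at S0. With each list cut to 8608 peaks and ranked again, a setting chosen after seeing the data, 11 of 15 cell cycle genes were lower at S8 (73.3%, against 49.6% of 7723 genes), with a median difference of -9.56 points, against 0.0871 over all genes. In the full lists the ranks at S2 were lower than at S0 in 15 of 19 genes (78.9%, against 61.1% of all genes) and those at S4 in 16 of 18 (88.9%, against 59.7%). With equal lengths it was 12 of 17 at S2 (70.6%, against 48.6%) and 9 of 13 at S4 (69.2%, against 49.7%), with medians of -5.52 and -2.51 points. Between S4 and S2 the ranks were lower in 9 and higher in 9 genes of the full lists, and lower in 5 and higher in 9 with equal lengths. The 3 genes higher at S8 than at S0 in the full lists were AT2G22490 by 41.5 points, AT1G15570 by 15.3 and AT1G47210 by 8.66. With equal lengths AT2G22490 and AT1G15570 were again higher, AT5G65420 and AT1G47230 turned from lower to higher (by 7.2 and 8.27 points), and AT1G47210 had no peak at S0. Ranked by −log10 p instead, or with the peak nearest to the TSS in place of the strongest, 14 of the 17 were again lower. The 3 comparisons with S0 share its list, and all of these values rest on pooled libraries without an error.

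Strongest peaks with the summit inside the gene had it a median distance from the TSS of 358.5 bp (S0, 20 genes), 444 bp (S2, 17), 441.5 bp (S4, 16) and 477 bp (S8, 14), against 390 to 399 bp over all genes. Their median width was 975.5, 790, 915.5 and 860.5 bp, against 772, 723, 778 and 772 bp over all genes. The annotated length of the 46 genes was similar whether they had a peak or not, with a median of 2461 bp for the 16 with a peak at all 4 stages and 2382 bp for the 20 with none, while over all genes these medians were 2408.5 and 1672.5 bp.

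The MSA core was found more often in the cell cycle genes with fewer peaks. It was present in 3 of the 16 promoters of genes with a peak at all 4 stages (18.8%), in 5 of 10 with a peak at some stages (50%) and in 14 of 20 with none (70%). Over all protein-coding genes the order was the reverse and the spread small, with 28.1, 26.8 and 22%. With the 250 bases before the start only, the core was in 3 of 16, 5 of 10 and 11 of 20 cell cycle promoters (18.8, 50 and 55%). The difference between some stages and none was then small. B-type cyclins supply 6 of the 20 genes with no peak and D-type cyclins 7 of the 16 with a peak at all stages. In the 8 genes that had both a peak and the core, all 19 matches lay outside the peaks. The peaks of these genes began downstream of the TSS or ended upstream of it, so little overlap with a promoter window was possible. The share of matches outside peaks over all genes was not computed. E2F sites were found in 4 of 16, 0 of 10 and 2 of 20 promoters, against 3.76, 4.31 and 3.19% of all promoters with these patterns. With the 250 bases before the start only, the counts were 3, 0 and 1.

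**Figure D4:**
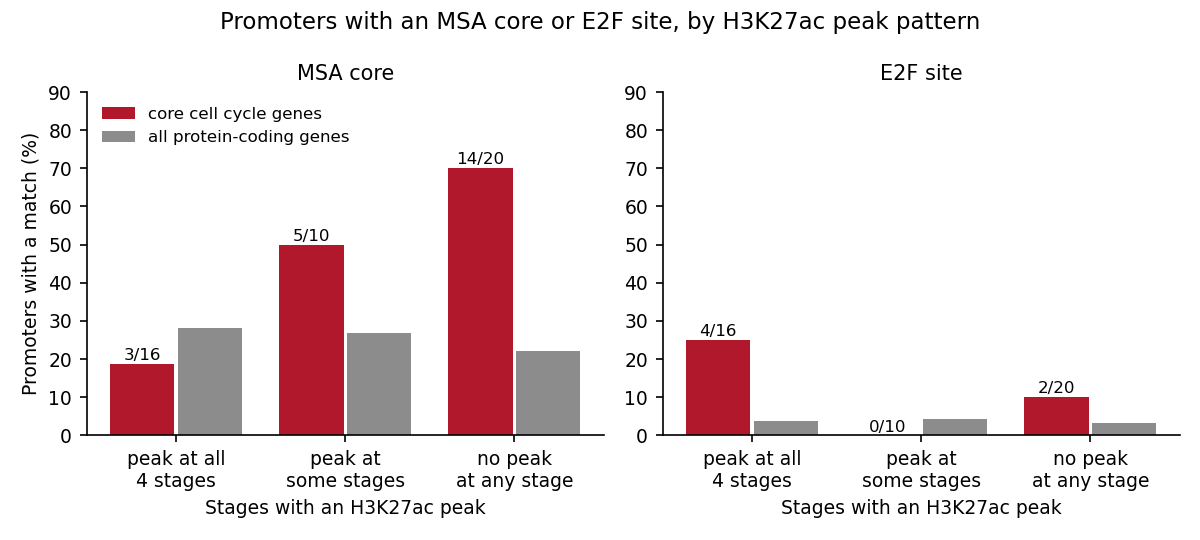
Share of promoters (250 bases before to 50 bases after the start) with an MSA core (left) or an E2F site (right), in percent, for core cell cycle genes (red, with the number of genes above each bar) and all protein-coding genes (grey), by H3K27ac peak pattern. The share of cell cycle promoters with the MSA core is 18.8, 50 and 70% across the 3 patterns, against 28.1, 26.8 and 22% of all promoters.

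Another 44 genes that work with the core set were counted by the same rule. The numbers with a peak were 17, 12, 11 and 13 in order of stage (38.6, 27.3, 25 and 29.5%), below the 43.8, 34.5, 36.4 and 36.6% of all genes at every stage. Of the 44, 7 had a peak at all 4 stages (15.9%, against 26.7% of all genes) and 22 at none (50%, against 51.6%). None of the 4 MYB3R genes, whose products bind the MSA element, had a peak at any stage. Of 13 genes of replication licensing and PCNA, 9 had none, including all 6 MCM genes of the replicative helicase, while PCNA1 had a peak at all 4 stages (between the 8.4 and the 44.5 percentile). Among the 5 activators of the anaphase-promoting complex, which degrades mitotic cyclins, CCS52A1 had a peak at all 4 stages (60.7, 62, 88.9 and 76.3 percentiles) and both CDC20 genes had none. Of the 8 CDKC to CDKF kinases with cyclin H, which activate other CDKs or act in transcription, 5 or 6 had a peak at each stage. AUR3, a mitotic kinase gene, had a peak at S0 (67.7 percentile) and at S8 (5.24 percentile) and none between, as AT1G20610 did.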

How the data were processed

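H3K27ac ChIP-seq was done by the authors on 8 libraries (2 per stage) of inflorescences, with 2 inputs. Per the labels and the study's methods, reads were aligned to TAIR10 with Bowtie 1.1.2 (2 mismatches in the seed, reads with up to 10 places kept at 1 of them), duplicates were removed with Picard 2.60, and peaks were called on pooled replicates with MACS2 2.1.0 at a relaxed limit of 0.01, keeping those with an irreproducible discovery rate of up to 0.1. The deposited narrowPeak lists give for each peak a score, the fold enrichment (a ratio of ChIP over control) at the summit, and −log10 p and −log10 q. Since reads with several places were kept, peaks on repeated sequence are possible, and pooling leaves no value per replicate. Depth is not given by the lists.

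Genes were taken from RefSeq TAIR10.1, whose nuclear chromosomes are those of TAIR10. Peaks were assigned by summit, ranks are mid-rank percentiles within a list, and motifs were searched in windows cut from the genome, with Python 3.11.15, NumPy 2.4.6, pandas 2.3.3 and matplotlib 3.10.9. These steps were tested on simulated data. Repeated sequence was the share of 32-base words within 201 bp around a summit that occur again. Every gene is accounted for by class, and coordinates are given for each gene whose called state differed between stages and for the highest mean rank of each class (no peak counted as 0). Alternatives changed the overlap rule, the upstream window, the gene given a peak, the peaks kept, the rank measure and the promoter window. The members and lists were chosen with earlier results of these data known. No group comparison was tested.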

Additional observations from a re-analysis of the deposited data

How the results depend on the processing

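Of 71 counts over the 46 cell cycle genes recomputed under the alternatives, 59 stayed within 1.5 times of the value reported. With the 5000 peaks of each list that have the highest −log10 p, 15 genes had a peak at S0, 10 at S2, 11 at S4, 8 at S8 and 5 at all 4 stages, and 1 (CYCD2;1) had a peak at S8 and none at S0. With lists cut to 8608 peaks, 3 genes had a peak at S0 and none at S8 and 1 (CYCA3;2) the opposite, against 6.31 and 6.24% of all genes. With peaks of a −log10 q of at least 20 only, 8 genes had a peak at S2, 11 at S4, 8 at S8 and 5 at all 4 stages. The shares of all genes were 16.1, 19.7, 20.7 and 11.2%. These settings keep fewer peaks by construction. Any overlap in place of the summit gave the same counts at all 4 stages, against 46.4, 36.4, 38.8 and 39% of all genes. Leaving out upstream summits in another protein-coding gene was chosen after seeing the data. It gave 23, 19, 18 and 15 genes at S0, S2, S4 and S8, against 39.4, 30.7, 32.3 and 32.7% of all genes. Of 224 counts by class and stage 174 stayed within 1.5 times, and of 49 differences in rank between S8 and S0, 2 changed sign and 2 others moved by over 10 percentile points. With lists cut to 8608 peaks and ranked again, which was added after seeing the data, CYCD4;1 was 7.2 and CYCA3;4 8.27 points higher at S8 than at S0, and CYCD2;1 was 62.1 points higher. With the peak nearest to the TSS, KRP4 was at -41.1 points.

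No paired analysis was possible because the lists pool the replicates of a stage, and leaving out a replicate was not possible for the same reason. The lists give no depth, no value for a gene without a peak and no error for a rank, so a gene absent from a list is not shown to lack the mark.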
